A study of Mus musculus with 12 samples.

Results

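Dendritic cells are named by a small number of genes, and 10 of these were followed through the RNA-seq libraries of CD115-positive monocytes: Flt3 and Zbtb46, shared by conventional dendritic cells; Batf3, Xcr1 and Irf8 of the type 1 subset; Cd209a of the type 2 subset and of cells that arise from monocytes; Ccr7 and Fscn1 of migrating cells; and Siglech and Tcf4 of plasmacytoid dendritic cells. They were taken by gene symbol, out of 52553 features in the count tables, and all 10 were among the 20135 features that passed the filter on low counts. The cells came from spleen or peripheral blood of male C57BL/6 mice, none of them splenectomized. The animals either had an intact liver or had lost 70% of the liver mass 24 h earlier, which gave 4 groups of 3 libraries: spleen intact, spleen resected, blood intact and blood resected. Every library held cells of 5 mice, captured with magnetic beads against CD115, the receptor for macrophage colony-stimulating factor encoded by Csf1r. Beads enrich cells and do not purify them, and the methods call the splenic preparation a monocyte-macrophage fraction. The labels of the intact animals name no sham operation, so the effect of surgery and that of the lost liver mass cannot be told apart. Nothing in the labels links a blood library to a splenic one, and the p-values below measure the spread between these libraries.

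Conventional dendritic cells arise from bone marrow progenitors that carry Flt3, a receptor tyrosine kinase, and depend on its ligand. The type 1 subset requires the transcription factors Irf8 and Batf3 and presents antigen to CD8 T cells, while the type 2 subset presents to CD4 T cells. On activation both subsets raise the chemokine receptor Ccr7 and the actin-bundling protein Fscn1 (fascin) and travel towards lymph nodes. Plasmacytoid dendritic cells secrete type I interferon and require the E protein Tcf4. Several of these genes are also active elsewhere: Irf8 and Tcf4 in B cells, Irf8 in monocytes, and Ccr7 in naive T and B cells. In these bulk libraries fewer cells of a type and less RNA per cell cannot be told apart.

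The libraries held 36990033 to 46401368 estimated counts, and levels are given as CPM, counts scaled by the TMM-adjusted library size. One count corresponded to 0.0209 to 0.0340 CPM. Csf1r was measured in every library, from 209 to 1192 CPM. RNA of other cells was present too. The summed level of 7 B-cell genes (Cd79a, Pax5 and others) was 3497 to 3922 CPM in intact spleen, 974 to 2814 in resected spleen, 463 to 2064 in intact blood and 580.0 to 1415 in resected blood. Haemoglobin genes took 0.0814% to 3.47% of the counts of splenic and 13.2% to 34.2% of those of blood libraries. Peritoneal macrophage genes (Gata6, Timd4 and others, 5 in all) summed to 11.8 to 18.9 CPM in intact spleen, 6.91 to 13.4 in resected spleen, 274 to 891 in intact blood and 3782 to 4696 in resected blood, and their part in the blood values was not tested. Some libraries stood apart within their group: intact blood library 3 had the lowest B-cell sum of its group (463 CPM) and the highest sum of 8 T-cell genes (3849.6 against 1375 and 1465 CPM), and the third libraries of resected spleen and resected blood had the highest sums of 6 neutrophil genes (5203 and 5331 CPM). Of the 10 dendritic cell genes, 8 were lowest in library 3 of intact blood, 8 in library 3 of resected spleen and 9 in library 3 of resected blood. Values or ranges without single libraries are given where a call or a sign changed.

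**Figure D1:**
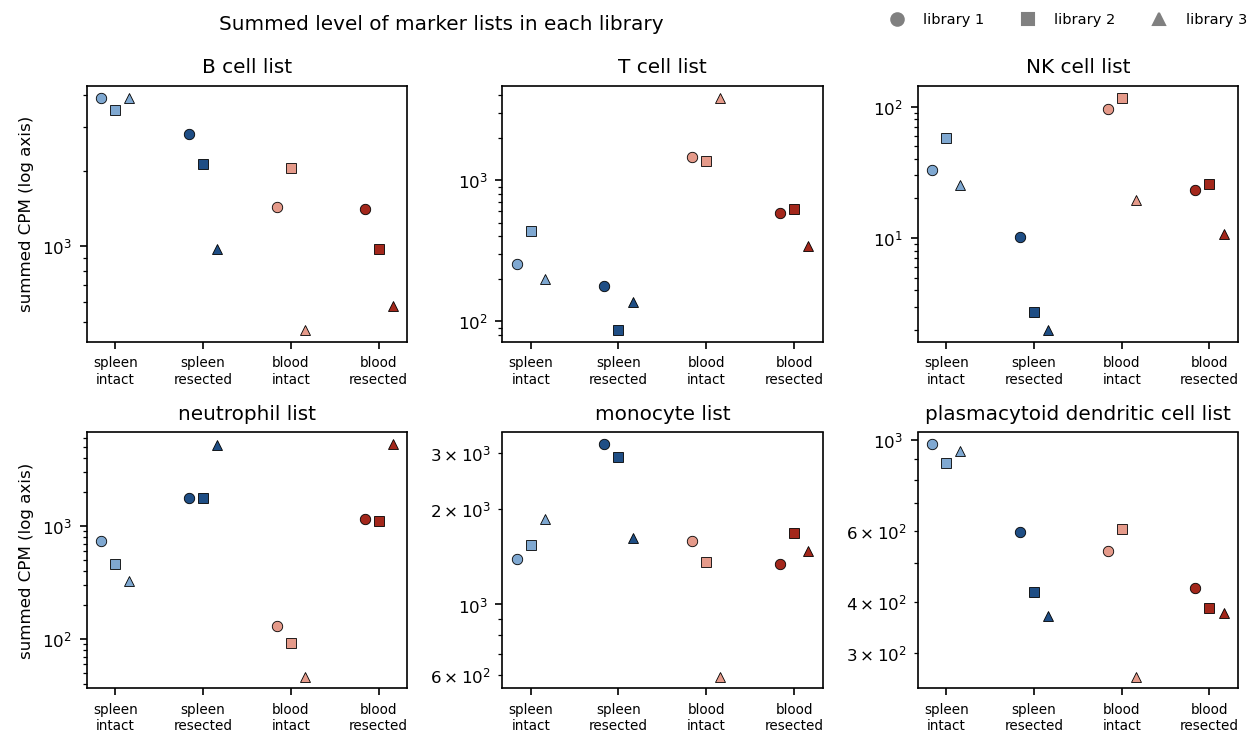
Summed CPM (log axis) of 6 marker lists in each of the 12 libraries, with symbols for libraries 1, 2 and 3 of a group. The B-cell sum lies between 3497 and 3922 CPM in intact spleen and falls to 463 CPM in library 3 of intact blood, which has the highest T-cell sum.

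Per kilobase of exon (all annotated exons of a gene in GENCODE M21, merged), the dendritic cell genes of intact spleen covered a wide range. The merged length can exceed that of any single transcript, so the order depends on it. For Tcf4 it was 27382 bases, and in CPM Tcf4 stood at 96.1 against 32.1 for Flt3 in intact spleen. Ccr7 was highest at 172 ± 56.6 CPM per kb (SD, n = 3 libraries), followed by Irf8 at 73.1 ± 2.36, Cd209a at 11.5 ± 1.64 and Flt3 at 5.20 ± 0.602. The libraries of these 4 genes did not overlap on this scale. Below them, on the same scale, came Fscn1 (4.32 ± 0.417), Tcf4 (3.51 ± 0.593), Batf3 (2.80 ± 0.537), Xcr1 (2.25 ± 0.747), Zbtb46 (1.64 ± 0.229) and Siglech (1.35 ± 0.728), and each of these overlapped with the next in the order. For comparison, Csf1r stood at 78.4 ± 13.1 and the B-cell receptor component Cd79a at 855 ± 47.6 CPM per kb. Ccr7 lay above Csf1r in every intact splenic library, Irf8 overlapped with it, and the other 8 genes lay below.

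**Figure D2:**
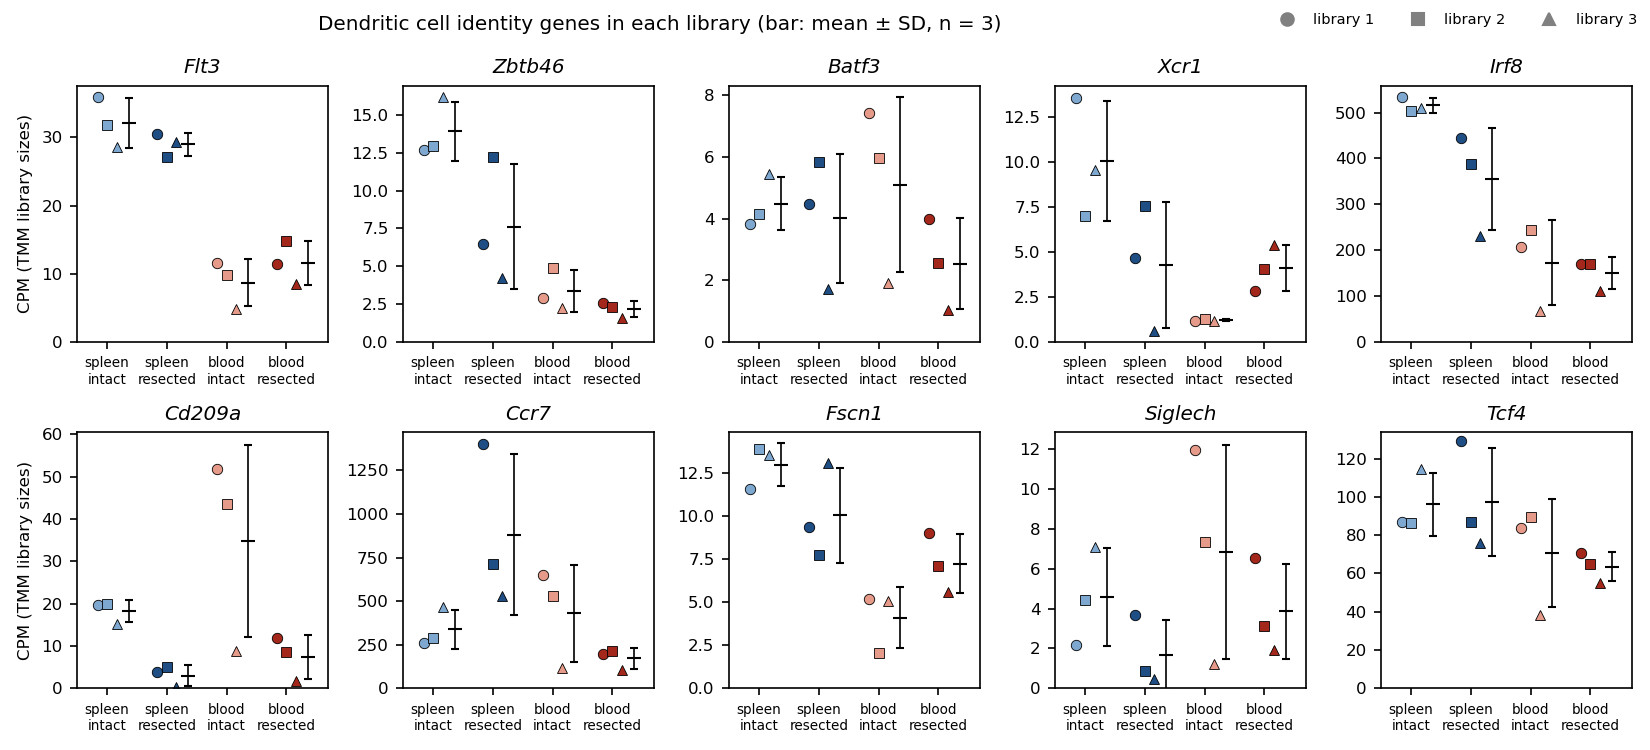
Level of each of the 10 genes in CPM in every library of the 4 groups, 1 panel per gene with its own axis from 0, with mean and SD (n = 3 libraries, bars cut at 0) beside the points. Flt3 and Zbtb46 lie lower in blood than in spleen in both states, Cd209a lies lower in resected than in intact spleen and overlaps between the states in blood, neither of them called, and library 3 of intact blood or of resected spleen is often the lowest of its group.

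In intact animals the shared conventional dendritic cell genes were lower in blood than in spleen. Flt3 measured 36.0, 31.8 and 28.6 CPM in the 3 intact splenic libraries and 11.5, 9.76 and 4.81 CPM in the 3 intact blood libraries. Every blood library lay below every splenic one, and the mean was 3.69-fold lower in blood (8.70 ± 3.49 against 32.1 ± 3.72 CPM, SD, n = 3). The log2 fold change was -1.89 ± 0.31 (SE, adjusted p = 0.00700, quasi-likelihood test of edgeR, Benjamini-Hochberg adjusted over all 20135 features). Zbtb46, a zinc finger factor that separates conventional dendritic cells from monocytes and macrophages, measured 12.7, 12.9 and 16.2 CPM in intact spleen and 2.92, 4.91 and 2.23 CPM in intact blood. Its libraries did not overlap either, and its log2 fold change was -2.05 ± 0.43 (SE, adjusted p = 0.0190 in the same test).

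The stretches listed as promoters of Flt3 and Zbtb46 are shown because both genes were lower in blood in both states. They are the 250 bases before and 50 bases after the start listed by RefSeq on GRCm38.p6, an earlier build than that of the counts. Flt3 is at chr5:147400440-147400739, minus strand, and Zbtb46 at chr2:181424339-181424638, minus strand, read 5' to 3' on the gene's strand. Capitals mark matches on either strand to 4 motifs: the ETS-IRF element GGAANNGAA, the IRF repeat GAAANNGAA, the AP-1 element TGANTCA and the E-box CANNTG bound by E proteins such as Tcf4, of which the IRF elements can overlap.
Flt3: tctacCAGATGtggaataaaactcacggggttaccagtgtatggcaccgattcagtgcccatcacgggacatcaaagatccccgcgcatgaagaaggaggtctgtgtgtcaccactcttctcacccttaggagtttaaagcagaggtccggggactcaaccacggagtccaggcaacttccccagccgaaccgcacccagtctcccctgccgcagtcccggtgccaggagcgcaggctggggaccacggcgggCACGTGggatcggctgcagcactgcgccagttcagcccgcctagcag
Zbtb46: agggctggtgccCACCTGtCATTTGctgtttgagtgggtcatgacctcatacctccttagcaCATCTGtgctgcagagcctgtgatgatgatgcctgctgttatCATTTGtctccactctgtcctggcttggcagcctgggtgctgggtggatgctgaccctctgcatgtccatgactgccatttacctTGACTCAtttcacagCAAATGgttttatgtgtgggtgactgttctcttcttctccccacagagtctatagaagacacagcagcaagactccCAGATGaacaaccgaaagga
Flt3 held 2 E-boxes and none of the other motifs. Zbtb46 held 6 E-boxes and 1 AP-1 element. Right before its listed start, however, stands a run of C and T followed by acag, as at the end of an intron. That start may lie inside the gene, so the Zbtb46 motifs and CpG are those of a stretch that may not be its promoter. An E-box was found in 72.3% and an AP-1 element in 7.81% of all 32851 promoters of this length, an ETS-IRF element in 8.24% and an IRF repeat in 8.56%. The 2 stretches differed in composition, with 61.0% G or C and 18 CpG in Flt3, and 50.7% and 1 CpG in Zbtb46. The medians over all promoters were 52.7% and 7. Among the 8 genes with a promoter in the table, the share of G or C ran from 40.0% in Xcr1 to 75.7% in Batf3. The genes Ccr7 and Tcf4 had no entry.

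Within the type 1 subset, Xcr1 and Irf8 were lower in intact blood and Batf3 was not called. Xcr1, the receptor by which type 1 cells meet Xcl1-secreting lymphocytes, measured 13.6, 6.97 and 9.56 CPM in intact spleen and 1.16, 1.28 and 1.18 CPM in intact blood, which had 42 to 54 counts per library. No libraries overlapped, and the log2 fold change was -3.05 ± 0.72 (SE, adjusted p = 0.0294, edgeR). Irf8 measured 535, 503 and 509 CPM in intact spleen and 207, 244 and 67.1 CPM in intact blood. The 3 splenic libraries lay close together and all above blood, where library 3 was lowest, and the log2 fold change was -1.58 ± 0.43 (SE, adjusted p = 0.0461, edgeR). Batf3, the partner of Irf8 in type 1 cells, measured 3.83, 4.15 and 5.45 CPM in intact spleen and 7.43, 5.96 and 1.92 CPM in intact blood. Its tissues overlapped, and the 95% interval of its log2 fold change of 0.19 ran from -1.19 to 1.56.

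The 2 genes of migrating cells parted in this comparison. Fscn1 measured 11.6, 13.9 and 13.6 CPM in intact spleen and 5.17, 2.08 and 5.07 CPM in intact blood, with no overlap, and its log2 fold change was -1.66 ± 0.36 (SE, adjusted p = 0.0214, edgeR). Ccr7 measured 261, 291 and 468 CPM in intact spleen and 648, 528 and 115 CPM in intact blood. Blood libraries 1 and 2 were above and library 3 below all splenic libraries, so the tissues overlapped (log2 fold change 0.34, 95% interval -0.97 to 1.65). The remaining genes, Cd209a, Siglech and Tcf4, were not called, with log2 fold changes of 0.93 (-1.13 to 2.99), 0.58 (-1.44 to 2.61) and -0.45 (-1.14 to 0.24), intervals in parentheses.

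In all, 5 of the 10 genes were called lower in intact blood and 0 higher, where a call needed an adjusted p under 0.05 and a log2 fold change beyond 1 in size. Over all features tested 7.35% were called in either direction in this comparison, and 3.49% were called lower. The libraries of the tissues did not overlap for 5 of the 10 genes, against 34.5% of all features, and the median log2 fold change was -1.01 for the 10 genes and -0.0187 for all features. DESeq2 called the same 5 genes, and 12.8% of all features. The calls changed when libraries were left out, as did those over all features. Without any one of the 3 intact splenic libraries only Flt3 was called. The share of all features called was then 2.51%, 2.91% and 3.57% without splenic library 1, 2 and 3. The Zbtb46 call was also lost without intact blood library 1 (log2 fold changes -2.02 to -1.84 over these 4 omissions), while Fscn1 lost its call without any splenic library of intact animals (-1.64 to -1.50) and in a fit of the 2 groups alone (-1.66). Xcr1 lost its call on 9 of 12 omissions (-3.15 to -2.67), every one but those of resected splenic library 2 or 3 and resected blood library 3. Irf8 lost its call on 11 of 12 (-1.82 to -1.45), every one but that of intact blood library 3, where the value was smaller (-1.09). Its call was also lost with RLE factors, no filter on low counts, unsummed entries, haemoglobin genes left out or only the 2 groups in the fit (-1.57 to -1.47). With both intact blood library 3 and resected splenic library 3 left out, all 5 were called, and 8.74% of all features.

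**Figure D3:**
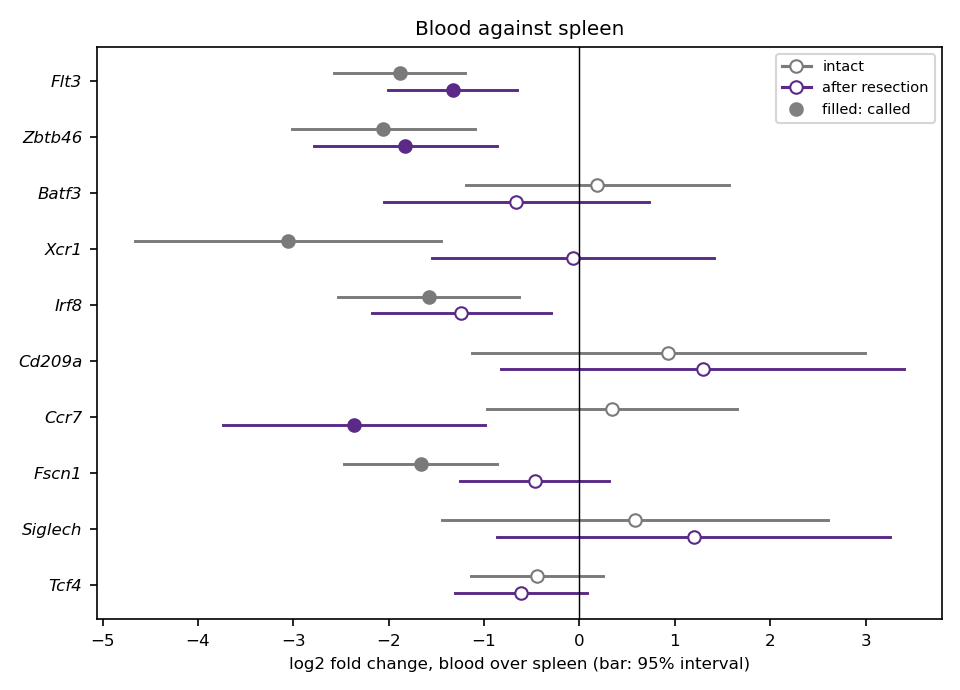
Log2 fold change of blood over spleen for each gene, in intact animals (grey) and after resection (purple), with 95% intervals from the edgeR fit and filled points for called genes. Flt3 and Zbtb46 are filled in both states, and Cd209a and Siglech are the 2 genes with values above 0 in both, with intervals that include 0.

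After resection Flt3 and Zbtb46 were again lower in blood, and Ccr7 joined them. Flt3 measured 30.5, 27.1 and 29.4 CPM in resected spleen and 11.4, 14.8 and 8.42 CPM in resected blood. No libraries overlapped (log2 fold change -1.33 ± 0.30, SE, adjusted p = 0.0152, edgeR). Zbtb46 measured 6.44, 12.2 and 4.20 CPM in resected spleen and 2.59, 2.31 and 1.55 CPM in resected blood, again without overlap, although splenic library 2 was far above libraries 1 and 3 (log2 fold change -1.82 ± 0.43, SE, adjusted p = 0.0174, edgeR). Ccr7 measured 1402, 713 and 531 CPM in resected spleen and 197, 213 and 104 CPM in resected blood. The lowest splenic library was above the highest blood library, and the mean was 5.15-fold lower in blood (log2 fold change -2.36 ± 0.62, SE, adjusted p = 0.0258, edgeR).

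The type 1 genes did not pass in resected animals. Irf8 measured 446, 388 and 232 CPM in resected spleen and 170.2, 171 and 110.1 CPM in resected blood, without overlap, but its log2 fold change of -1.24 had an adjusted p of 0.0665 in edgeR's test. It was called by DESeq2 (-1.13), and in edgeR in a fit of the 2 groups alone (-1.18), without intact blood library 3 (-1.14) and without that library and resected splenic library 3 (-1.37). Xcr1 measured 4.67, 7.58 and 0.615 CPM in resected spleen and 2.84, 4.04 and 5.40 CPM in resected blood. The splenic values spread from 25 counts in library 3 to 347 in library 2 and covered the blood values, so that the log2 fold change was -0.066 (95% interval -1.55 to 1.42) with a sign that turned in most alternatives. Batf3 (-0.66), Fscn1 (-0.47) and Tcf4 (-0.61) had log2 fold changes below 0 and Cd209a (1.29) and Siglech (1.20) above 0, none of them called. The tissues did not overlap for Tcf4, at 129, 86.9 and 76.1 CPM in spleen and 70.5, 65.1 and 55.2 CPM in blood.

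In all, 3 of 10 genes were called lower in resected blood and 0 higher. Of all features 13.1% were called in either direction and 6.86% lower. Groups did not overlap for 5 genes (Flt3, Zbtb46, Irf8, Ccr7 and Tcf4), against 42.4% of all features, and the median log2 fold change was -0.64 for the 10 genes against -0.139 for all. All 3 calls were lost without resected splenic library 2 or resected blood library 3, where 6.88% and 7.64% of all features were called. The Flt3 call was also lost without library 1 of either tissue of resected animals (-1.27 to -1.04 over these 4), the Zbtb46 call without resected blood library 2 (-1.79 to -1.21 over 3), and the Ccr7 call without any of the resected libraries other than splenic library 3 (-2.46 to -1.76 over 5).

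Resection was then compared with the intact state within each tissue. In blood 0 of 10 genes were called by edgeR's quasi-likelihood test at an adjusted p under 0.05, where 13.9% of all features were called in either direction. At an unadjusted p under 0.05 there were 3, Xcr1 and Fscn1 above 0 and Cd209a below. The share of all features at that limit was not counted in any comparison, so such counts here and below are not read as a result. DESeq2 called Cd209a and Xcr1, where it called 18.4% of all features, so that 2 of 10 is near that share. Xcr1 measured 1.16, 1.28 and 1.18 CPM in intact and 2.84, 4.04 and 5.40 CPM in resected blood. Every resected library was above every intact one, by 3.39-fold in the mean, with a log2 fold change of 1.76 ± 0.69 (SE, adjusted p = 0.0956, edgeR). It was called in DESeq2 (1.79), in a fit of the 2 blood groups alone (1.76), without resected splenic library 3 (1.76), and without that library and intact blood library 3 (1.74). Fscn1 also did not overlap, at 5.17, 2.08 and 5.07 CPM before and 9.0, 7.13 and 5.63 CPM after resection (log2 fold change 0.82, adjusted p = 0.125, edgeR). These were 2 of 10 genes without overlap, against 38.4% of all features.

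In the spleen 0 of 10 genes were called by edgeR's test, against 1.38% of all features. At an unadjusted p under 0.05 there were 2, Ccr7 above 0 and Cd209a below. DESeq2 called Cd209a, where it called 7.77% of all features, so that 1 of 10 is near that share. Ccr7 measured 261, 291 and 468 CPM in intact and 1402, 713 and 531 CPM in resected spleen. The resected libraries lay above the intact ones without overlap, but library 1 was far above library 3 (log2 fold change 1.38 ± 0.60, SE, adjusted p = 0.226, edgeR). Groups also did not overlap for Zbtb46 (-0.87), Irf8 (-0.54) and Cd209a, all with log2 fold changes below 0, which made 4 of 10 genes against 35.1% of all features. The other 6 genes overlapped between the states.

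Cd209a, a C-type lectin of type 2 and of monocyte-derived dendritic cells, had the lowest log2 fold change of the 10 genes after resection in each tissue. In the spleen it measured 19.7, 19.8 and 15.2 CPM in intact and 3.76, 5.02 and 0.270 CPM in resected animals, the last value resting on 11 counts. In blood it measured 51.8, 43.7 and 8.91 CPM in intact and 11.8, 8.59 and 1.77 CPM in resected animals. The splenic groups were apart, while the blood groups overlapped through library 3 of intact blood, which was below library 1 of resected blood. The log2 fold changes were -2.59 in spleen ± 0.98 (SE, adjusted p = 0.171) and -2.23 in blood ± 0.96 (SE, adjusted p = 0.126, edgeR for both). DESeq2 called both (-2.61 and -2.23). Without intact blood library 3 and resected splenic library 3 together, an alternative chosen after seeing the data, edgeR called it in blood (-2.70) and not in spleen. The level of 5 NK-cell genes moved the same way, with sums of 25.5 to 57.4 CPM in intact and 1.99 to 10.1 in resected spleen and 19.5 to 117 in intact and 10.7 to 25.8 in resected blood, with 0 of 5 called in either tissue. Its part in the Cd209a values was not tested.

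The promoter of Cd209a is shown as that of the gene with the lowest log2 fold change after resection in both tissues. It lies at chr8:3748935-3749234, minus strand, on the build named above, with the same motifs in capitals.
Cd209a: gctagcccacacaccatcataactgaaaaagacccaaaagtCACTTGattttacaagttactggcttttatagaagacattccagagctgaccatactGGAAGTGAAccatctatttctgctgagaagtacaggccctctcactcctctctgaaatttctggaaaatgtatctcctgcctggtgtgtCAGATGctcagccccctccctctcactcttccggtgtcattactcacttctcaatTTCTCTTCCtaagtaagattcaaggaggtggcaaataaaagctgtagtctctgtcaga
It held 2 ETS-IRF elements, which no other stretch listed for the 8 genes held, and 2 E-boxes, with 44.0% G or C and 1 CpG.

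**Figure D4:**
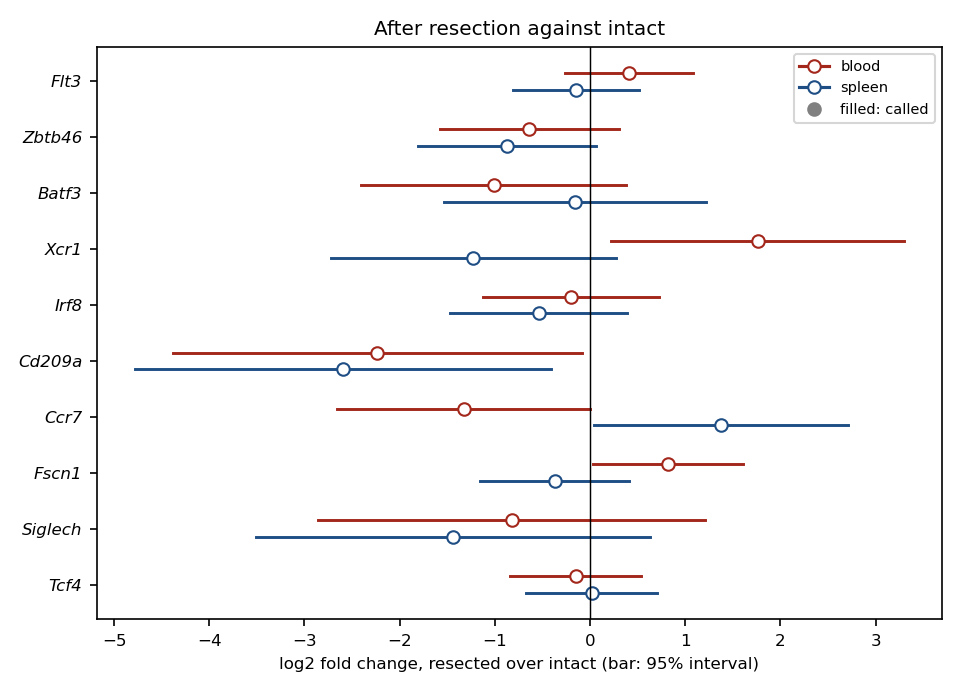
Log2 fold change of resected over intact for each gene, in blood (red) and spleen (blue), with 95% intervals from the edgeR fit. No point is filled because no gene was called, Cd209a is lowest in both tissues, and Xcr1 and Ccr7 point in opposite directions in the 2 tissues.

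Whether resection acted differently on blood and spleen was tested as an interaction. By edgeR's test 0 of 10 genes were called, against 0.283% of all features. At an unadjusted p under 0.05 there were 3: Xcr1 with an interaction of 2.99 (blood minus spleen, log2 scale, 95% interval 0.84 to 5.13, adjusted p = 0.188), Fscn1 with 1.19 (0.084 to 2.30, adjusted p = 0.264) and Ccr7 with -2.70 (-4.58 to -0.82, adjusted p = 0.181). Xcr1 went from 8.31-fold lower in blood than in spleen among intact animals to nearly equal means after resection, 4.09 ± 1.28 against 4.29 ± 3.50 CPM (SD, n = 3). Ccr7 had a log2 fold change of -1.33 in blood (adjusted p = 0.140, edgeR) against 1.38 in spleen. DESeq2 called the interaction of Ccr7 (-2.69) and Xcr1 (3.04), against 5.78% of all features. Without intact blood library 3 and resected splenic library 3 edgeR called that of Ccr7 (-3.42, adjusted p = 0.0357) and its decrease in blood (-1.78), which was also called without intact blood library 3 alone (-1.78). With both left out, 1.71% of all features were called for the interaction and 14.2% for resection in blood. The median over the 10 genes was 0.35 against -0.116 over all features, and the medians of the resection effect were -0.42 against -0.103 in blood and -0.46 against 0.0497 in spleen.

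Neither plasmacytoid gene was called in any comparison. Tcf4, which measured 87.0, 86.5 and 115 CPM in intact spleen and 83.7, 89.7 and 38.3 CPM in intact blood, had the narrowest range of group means among the 10 genes, 1.53-fold from the highest, resected spleen, to the lowest, resected blood. Its resection effects were 0.019 in spleen (95% interval -0.67 to 0.71) and -0.15 in blood (-0.84 to 0.54) on the log2 scale. Siglech, a lectin of plasmacytoid cells, measured 2.17, 4.45 and 7.09 CPM in intact spleen, 3.69, 0.873 and 0.492 in resected spleen, 12, 7.32 and 1.25 in intact blood and 6.53, 3.12 and 1.94 in resected blood. All 4 groups overlapped with their neighbours in the order of means, and the intervals were wide, as in the spleen after resection (-1.44, -3.51 to 0.63). Batf3 likewise overlapped in every comparison, with its lowest mean in resected blood (4.0, 2.55 and 1.04 CPM) and a resection effect there of -1.01 (-2.41 to 0.38).

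Further genes of the same subsets were read from lists that exclude the 10. Of 10 type 1 genes, 3 were called lower in intact blood than in spleen, the adhesion molecule Cadm1 (-3.23, adjusted p = 0.0112), the RNA sensor Tlr3 (-2.15, 0.0110) and Gcsam (-4.07, 0.0110), and 2 after resection, Cadm1 (-4.60) and Gcsam (-2.24). Of all features 3.49% were called lower in intact and 6.86% in resected blood. Within a tissue 0 of the 10 were called after resection by edgeR's test, while 1 had an unadjusted p under 0.05 above 0 and 1 below in blood, and 0 above and 3 below in spleen. The shared list of 10 had 3 called lower in intact blood, the receptor Kit (-2.57), the transcription factor Mycl (-2.81) and the inhibitory receptor Btla (-2.25), and 5 in resected blood, of which the 3 with the smallest p-values were Kit (-1.30), Bcl11a (-2.74) and the peptidase Dpp4 (-1.16). In each of these lists 7 genes were not called in intact animals. The medians of these lists in intact animals were -1.21 and -1.36, against -0.0187 over all features. B-cell sums were also lower in intact blood (463 to 2064 CPM) than in intact spleen (3497 to 3922), as were red pulp macrophage sums (68.8 to 372 against 1013 to 1536). Their part in the lower list values of blood, such as those of Cadm1, Gcsam, Btla and Bcl11a, was not tested. Id2, a factor of type 1 cells that many lymphocytes and myeloid cells share, rose after resection in blood (1.12, adjusted p = 0.00130) and in spleen (1.07, 0.0179), and Kit rose in blood (1.45). Dpp4 (-1.43) and Cbfa2t3 (-1.61) fell in blood. After resection 7.80% of all features were called higher and 6.11% lower in blood, and 0.780% and 0.601% in spleen. Neutrophil genes moved in the same comparisons, with 6 of 6 called higher in blood (median log2 fold change 4.54, sums of 46.4 to 131 CPM in intact and 1113 to 5331 in resected blood) and 2 of 6 in spleen (median 2.11), and their part in the values of these lists was not tested.

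The type 2 list split by gene. Clec10a, a galactose-type lectin also found on macrophages, rose after resection in blood from 14.1, 12 and 6.95 to 40.8, 44.1 and 55.7 CPM (2.09, adjusted p = 0.00171) and fell in spleen from 5.70, 5.97 and 4.53 to 1.42, 2.12 and 2.38 CPM (-1.45, 0.0402). The interaction was 3.54 (adjusted p = 0.0214, edgeR). Cd209a did not share the rise in blood. Of 5 peritoneal macrophage genes, 4 were called higher after resection in blood, against 7.80% of all features, and 0 in spleen. Their sums were 274 to 891 CPM in intact and 3782 to 4696 in resected blood, and their part in the Clec10a values was not tested. The Clec10a paralog Mgl2 was higher in blood than in spleen in both states (4.64 and 4.0), and Clec4a4, a lectin of splenic type 2 cells, was lower in both (-3.24 and -2.06). The list holds Cd4, which T cells also carry, and which was higher in intact blood than in spleen (2.37) and fell in blood after resection (-2.34), as did 7 of 8 T-cell genes. In total 3 of 10 were called higher and 1 lower in intact blood, 3 and 2 in resected blood, 1 and 1 after resection in blood, and 0 and 1 in spleen. Over all features 3.86% were called higher in intact and 6.28% in resected blood against spleen, and 13.9% in either direction after resection in blood, so that 2 of 10 there is near the share of all features.

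Of 16 genes of migratory or mature dendritic cells, 4 rose after resection in blood, against 7.80% of all features called higher, and Ccr7 was not called. All 6 neutrophil genes were called higher in the same comparison. Of the 4 genes that rose, the 3 with the smallest p-values were Samsn1 (2.46, adjusted p = 0.00615), Nudt17 (2.01, 0.0102) and the NF-kB subunit Relb (1.62, 0.0196). In the spleen 0 of 16 were called by edgeR's test, with 1 above and 3 below 0 at an unadjusted p under 0.05. In intact animals 2 of 16 were lower in blood, the amino acid oxidase Il4i1 (-3.23) and the surface glycoprotein Cd200 (-2.47), and after resection 3 were lower and 2 higher in blood. The medians were 0.49 in blood and -0.057 in spleen after resection. Of 15 plasmacytoid genes tested, 1 rose (Klra17, 3.17) and 2 fell (Smim5, -2.28, and Upb1, -2.39) in blood after resection, where 3 of 15 is near the 13.9% of all features called in either direction, and 0 were called in spleen, with 1 above and 2 below 0 at an unadjusted p under 0.05. In intact animals 1 of the 15 was called, Ptprs, which was higher in blood (1.5), and 1 was higher and 4 lower in resected blood. Over all features 3.86% were called higher and 3.49% lower in intact blood, and 6.28% higher and 6.86% lower in resected blood. The 1 of 15 in intact animals is near the 7.35% of all features called in either direction.

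Ligands and paralogs of the 10 genes were looked up as well. Flt3l, the ligand of Flt3, measured 18, 19.4 and 15.9 CPM in intact spleen and 22.8, 25.8 and 7.45 CPM in intact blood and was not called in any comparison, nor was Xcl1, the ligand of Xcr1. The Ccr7 ligands Ccl19, Ccl21a and Ccl21b had at most 4 counts in any library and were not tested. Batf, which can stand in for Batf3 in type 1 cells, rose in blood after resection from 16.8, 19.7 and 13.3 to 27.4, 30.5 and 53.1 CPM (1.16 ± 0.29, SE, adjusted p = 0.0201, edgeR). Of the Cd209 paralogs, Cd209b was called higher in resected blood than in resected spleen (2.95, adjusted p = 0.0455, edgeR). Cd209c and Cd209d had lower means after resection in both tissues, as Cd209a had, and were not called. In blood the means went from 4.66 to 0.742 and from 5.21 to 0.918 CPM, in spleen from 0.821 to 0.207 and from 0.577 to 0.142. The means of Cd209b in blood and of Cd209e in spleen were higher after resection. How the authors' counting divided reads among the Cd209 genes, which resemble each other, is not given in the sources used here, so single members of that family are uncertain. For Zbtb46 up to 32.9% and for Flt3 up to 6.37% of a library's count came from entries named by accession that were added to the symbol.

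Across the 12 libraries the genes fell into those that ran together and those that did not. Pearson's r of log2 CPM is given as a description, since the libraries share tissue, state and RNA of other cells. It was 0.91 between Flt3 and Irf8, 0.91 between Zbtb46 and Irf8, 0.89 between Irf8 and Tcf4 and 0.83 between Ccr7 and Tcf4. Cd209a and Siglech ran together (0.79) and apart from Flt3 (-0.17 and -0.13). Some genes of the same subset ran together less, as Irf8 and Xcr1 had 0.59, Batf3 and Xcr1 0.17, Ccr7 and Fscn1 0.095, and Siglech and Tcf4 0.38.

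**Figure D5:**
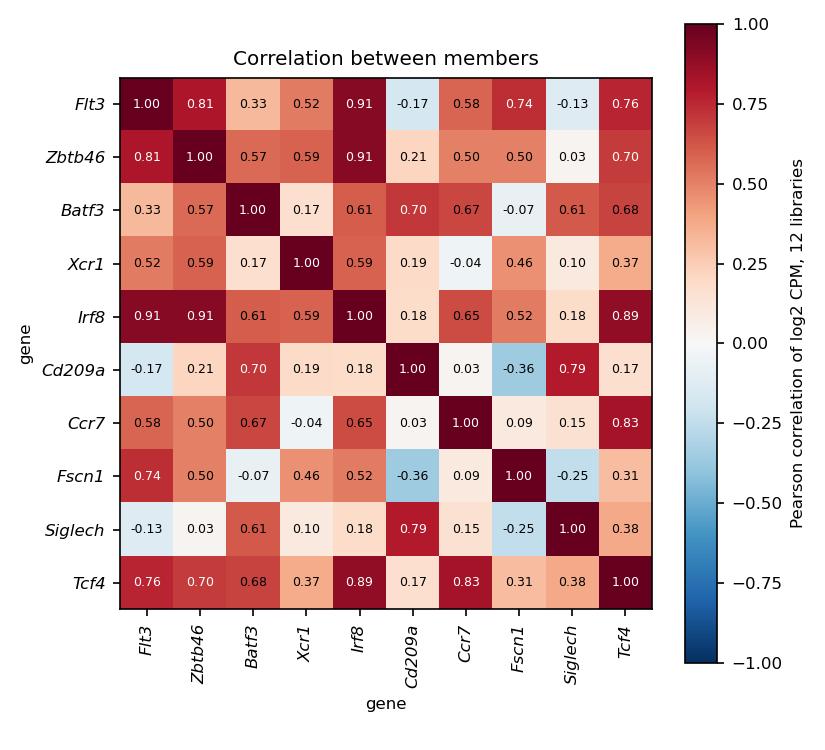
Pearson correlation of log2 CPM between the 10 genes over 12 libraries, each cell giving r on a colour scale from -1 to 1. Flt3, Zbtb46, Irf8 and Tcf4 have r of 0.70 or more with each other, and Cd209a with Siglech has 0.79.

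The level of B-cell genes ran with several of the 10 over the same libraries, with r of 0.96 between the B-cell sum and Irf8, 0.89 with Zbtb46, 0.87 with Tcf4, 0.78 with Flt3, 0.72 with Batf3, which was not called in either tissue comparison, 0.59 with Xcr1, 0.58 with Ccr7 and 0.40 with Fscn1, which was called lower in intact blood. All 7 B-cell genes had log2 fold changes below 0 in blood against spleen in both states, with medians of -1.65 in intact and -1.02 in resected animals, and 0 of 7 were called by edgeR's test (4 and 2 at an unadjusted p under 0.05). None of the 7 was at 0 in any group. Of 5 red pulp macrophage genes, 4 were called lower in intact and 3 in resected blood, against 3.49% and 6.86% of all features. Their sums were 1013 to 1536 CPM in intact spleen and 68.8 to 372 in intact blood. The r with this sum was 0.77 for Fscn1, 0.59 for Flt3, 0.54 for Xcr1, 0.33 for Irf8 and 0.32 for Zbtb46. The part of B-cell and of red pulp macrophage RNA in the lower Flt3, Zbtb46, Xcr1, Irf8 and Fscn1 of blood was not tested. Cd209a and Siglech had their highest r among the lists with the NK-cell sum (0.89 and 0.84).

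The features most like each gene over the 12 libraries, out of 12747 others with a symbol and a mean of at least 1 CPM, were listed by Pearson's r of log2 CPM. For Irf8 they were Haao (1.00), Mef2c (0.99), Blnk (0.99), of which Mef2c and Blnk are known from B cells. For Flt3 they were Chchd10 (0.98), Dll1 (0.97), Dusp1 (0.96), and for Zbtb46 Ftx (0.97), Bid (0.97), Arpc5l (0.97). For Xcr1 the first was Tlr3 (0.95), which type 1 cells also carry, before Tmem35b (0.91) and Art2a (0.91). For Batf3 they were Amz1 (0.97), Mfng (0.95), Cyria (0.94), and for Cd209a Il27ra (0.97), BC106179 (0.96), Klrc3 (0.95). Ccr7 was followed by Stk39 (0.95), Il12rb1 (0.93), Pdgfb (0.93), Fscn1 by Shisa8 (0.92), Tsen34 (0.85), Pigg (0.83), Siglech by Nectin1 (0.93), Prkab2 (0.92), Klra7 (0.91) and Tcf4 by Armcx2 (0.97), Tec (0.97), Alpk2 (0.97). Among 12747 features and 12 libraries high values of r arise easily, and they carry no test.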

How the data were processed

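RNA-seq libraries of CD115-positive cells from spleen and blood, 3 per tissue and state and 12 in all, were grouped by the sample titles. Each library has its own table of 67088 entries, in which the authors gave estimated counts that were not scaled. The submitters' processing notes name STAR and the build GRCm39, while the counter, its version and the annotation are not given in the sources used here. The methods give Illumina sequencing, while the labels give a strand-specific library of the DNBSEQ platform.

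Unassigned entries (1.75% to 4.33% of a library) were left out. Entries named by a RefSeq accession were added to their gene symbol where the RefSeq table gave one (25340 of 40274), which left 52553 features, rounded to whole counts. All features were fitted in edgeR 4.0.16 (R 4.3.3, limma 3.58.1) with filterByExpr (20135 kept), TMM factors (0.661 to 1.09 in blood, 1.14 to 1.26 in spleen) and a robust quasi-likelihood model of 4 groups over 12 libraries without covariates (common dispersion 0.312). A call needed a Benjamini-Hochberg adjusted p under 0.05 over all features and an absolute log2 fold change above 1. Intervals are 95% intervals of the fit. The scripts were tested on simulated data.

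Pairs of libraries of a group differed beyond counting error (chi-square over its degrees of freedom from 20.2 to 599), so each counted as 1 replicate. The labels do not say that replicate numbers pair libraries, and no pairing was used in the main fit. The r of the same-numbered deviations ran from -0.046 to 0.189, highest for blood against spleen after resection (0.042, 0.131 and 0.189). Such values cannot settle whether blood and splenic libraries of the same number share mice. Alternatives were DESeq2 1.42.0, RLE factors, other filters, unsummed entries, haemoglobin genes left out, only the groups compared, the replicate number as a block, no limit on the fold change, and each library left out. The 10 genes and all lists were chosen with earlier results of these data known. One gene of the B-cell list is not reported here. Named were the 10 genes, Csf1r, their ligands and paralogs, at most the 3 called list genes with the smallest p-values per direction and comparison, and the 3 features most like each gene.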

Additional observations from a re-analysis of the deposited data

How the results depend on the processing

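With 3 libraries a group, 10 genes and group spreads that span several-fold, only large differences could be called, and the low levels of Xcr1, Siglech and Cd209a in single libraries rested on few counts. Over the 12 omissions of 1 library each the number of the 10 genes called ran from 1 to 4 for blood against spleen in intact animals, where 5 were called, from 0 to 4 after resection, where 3 were called, and from 0 to 1 for resection in blood. It stayed at 0 for resection in spleen and for the difference of the resection effect. Over all features the share called in these omissions ran from 2.51% to 7.11% for blood against spleen in intact animals. It ran from 6.88% to 17.2% after resection and from 7.75% to 13.4% for resection in blood. DESeq2 called 2 genes for resection in blood (Cd209a and Xcr1), 1 in spleen (Cd209a) and 2 for the difference (Ccr7 and Xcr1). Of all features it called 18.4%, 7.77% and 5.78%, so that the counts in blood and in spleen are near the share of all features. With only the 2 groups compared in the fit, 1 was called for resection in blood (Xcr1) and 3 for intact blood against spleen (Flt3, Xcr1 and Zbtb46), without Fscn1 (-1.66), and Irf8 was added for resected blood against spleen (-1.18). These fits called 9.06% of all features for resection in blood and 4.37% for intact blood against spleen. The fit with the replicate block called 1 gene for resection in blood (Cd209a, -2.25), against 10.8% of all features. It ended the intact tissue call of Xcr1 (-3.07) and added Irf8 after resection (-1.22). Under this pairing by number, libraries correlated best with their own number in 1 to 5 of 6 cases per comparison. Without intact blood library 3 and resected splenic library 3, chosen after seeing the data, 3 genes were called for resection in blood (Ccr7, Cd209a and Xcr1) and 1 for the difference (Ccr7). Of all features 14.2% and 1.71% were then called. The intact tissue call of Irf8 was also lost with RLE factors (-1.49), no filter (-1.50), unsummed entries (-1.49), haemoglobin genes left out (-1.47) and only the 2 groups in the fit (-1.57). The cause was not tested.

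Signs turned only for values that were not called. With the replicate block these were Tcf4 for resection in spleen (-0.041), Batf3 (-0.16) and Siglech (-0.10) for intact tissues, and Xcr1 after resection (0.10). Xcr1 after resection also turned with RLE factors (0.052), DESeq2 (0.052), no filter (0.0061), unsummed entries (0.029) and haemoglobin genes left out (0.053). Without the 2 libraries named above, Batf3 turned for resection in spleen (0.20), and Zbtb46 (-0.29), Irf8 (-0.28), Cd209a (-0.65) and Siglech (-0.33) turned for the difference. Leaving out 1 library turned a sign for Irf8 (-0.59 to 0.13), Tcf4 (-0.45 to 0.062) for resection in blood, Batf3 (-0.53 to 0.20), Tcf4 (-0.24 to 0.17) for resection in spleen, Batf3 (-0.12 to 0.69), Ccr7 (-0.0041 to 0.90), Siglech (-0.014 to 1.19) for blood against spleen in intact animals, Xcr1 (-0.48 to 0.73) for blood against spleen after resection, Zbtb46 (-0.064 to 0.75), Irf8 (-0.051 to 0.68), Cd209a (-0.18 to 0.94), Siglech (-0.0041 to 1.90), Tcf4 (-0.47 to 0.081) for the difference of the resection effect, with the lowest and highest value over 12 omissions in parentheses. Scaling moved the median log2 fold change of all features by over 0.1 in the tissue comparisons, from -0.0187 to 0.0969 in intact animals with haemoglobin genes left out, and after resection from -0.139 to -0.0163 with haemoglobin genes left out and to -0.0272 with RLE factors.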
